A study of Mus musculus with 6 samples.

Results

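The regulators of nephron progenitor self-renewal followed here were 10 genes, namely Six2, Cited1, Eya1, Osr1, Sall1, Wt1, Pax2, Meox1, Meox2 and Crym. They were taken by gene symbol from the table of this study, which made 10 of its 52386 genes and 10 of the 25157 genes that carried a normalized count and could be tested. Nephron progenitor cells, which were sorted from mouse kidneys at E18.5, were compared between a control diet and maternal food restriction, with 3 libraries per diet. All embryos came from CD-1 females mated with Six2 Cre tg/+ males, and both diets shared this strain and transgene. Dams were randomised to one diet or the other and kept on it until collection. The restricted ration is 30% of daily calories in the sample labels but 70% in the series text, and which figure is right could not be settled. The cells were sorted as GFP-positive, and the labels do not say which construct carried GFP. If it was the Six2 Cre transgene, the level of Six2 in the sorted cells is tied to the gate in both diets. As background, GFP protein can outlast the activity of its promoter, so a GFP-positive gate can hold recent descendants of progenitors.

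Nephron progenitors form the cap mesenchyme, a layer of cells around each tip of the branching ureteric bud. They either renew or, on Wnt signals from the bud, turn into epithelial vesicles that build the nephron, and the pool is used up around birth in the mouse. Six2 keeps these cells undifferentiated, Eya1 is its partner protein, and Osr1, Sall1, Wt1 and Pax2 are needed for the progenitors to form or to last. Cited1 marks the least committed cells of the cap, and Meox1, Meox2 and Crym are known as genes of the cap mesenchyme.

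Promoter windows are shown for Six2, which gave the Six2 Cre transgene its name, and for the regulator that rose under food restriction. Each is 300 bases of RefSeq sequence on GRCm38.p6, from 250 before to 50 after an annotated start, written 5′ to 3′ on the strand of the gene. Capitals mark a CCAAT box (CCAAT), a GC box (GGGCGG) or a TATA box (TATAAA), searched on both strands. The windows are chr17:85688205-85688504 on the minus strand for Six2 and chr19:44755502-44755801 on the plus strand for Pax2.
Six2 promoter: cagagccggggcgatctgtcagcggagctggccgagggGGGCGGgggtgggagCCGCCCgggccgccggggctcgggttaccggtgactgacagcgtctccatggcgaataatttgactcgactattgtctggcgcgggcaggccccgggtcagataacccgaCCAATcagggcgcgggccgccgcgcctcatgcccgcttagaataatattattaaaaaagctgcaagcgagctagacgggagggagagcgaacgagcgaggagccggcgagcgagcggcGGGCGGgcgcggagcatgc
Pax2 promoter: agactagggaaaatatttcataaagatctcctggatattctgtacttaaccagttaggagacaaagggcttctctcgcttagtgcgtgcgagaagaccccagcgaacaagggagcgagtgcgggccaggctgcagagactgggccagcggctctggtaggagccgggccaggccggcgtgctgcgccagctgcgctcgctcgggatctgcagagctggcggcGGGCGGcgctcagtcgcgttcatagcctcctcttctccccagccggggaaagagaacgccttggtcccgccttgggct
The Six2 window held 37 CpG dinucleotides, 3 GC boxes, 1 CCAAT box and 0 TATA boxes. The annotated start used for the Pax2 window lies 293 bases from the gene start in the deposited table, and the window ends before that gene start. The Pax2 window held 23 CpG dinucleotides, 1 GC box, 0 CCAAT boxes and 0 TATA boxes. Pax2 has other annotated starts, 9444 and 861 bases from that gene start. Their windows, not shown, held 7 and 30 CpG dinucleotides and 0 and 1 GC boxes. Among 32851 windows of the same length, 35.7% held a GC box, 37.4% a CCAAT box and 13.6% a TATA box, and the median window held 7 CpG dinucleotides. Windows were at hand for 5 of the 10 genes.

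Total counts ranged from 10686582 to 12338593 in the controls and from 6515127 to 16763479 under food restriction. The design text calls the libraries biological replicates without saying how many litters or embryos each holds. The limma p-values rest on the variation among these 6 libraries, with the variance of each gene drawn towards a trend fitted over all genes. They therefore do not measure the spread of a single gene alone. Values below are the authors' normalized counts, which are read counts divided by 1 size factor per library. Over all genes, limma called 1193 of 25157 at an adjusted p under 0.05, which is 4.74%. Of all genes, 2.24% were called higher and 2.50% lower under food restriction. For 19.7% of all genes, each food-restricted library lay on the same side of each control.

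Pax2 rose and Meox1 fell under food restriction, and the other 8 regulators did not pass the test. Pax2 was 21.5% higher in the mean normalized count, and Meox1 was 1.34-fold higher in the controls. The 2 calls among 10 genes stand beside 4.74% of all genes and beside 9.96% of the 10060 genes with a mean normalized count of at least 100, which all 10 regulators reached. Libraries of the diets lay fully apart for 5 of the 10 regulators, against 19.7% of all genes and 29.3% of those 10060 genes. Osr1, Wt1 and Pax2 were higher in each food-restricted library than in any control, and Meox1 and Crym were lower. The median log2 fold change was −0.06 over the 10 regulators and −0.00 over all genes, and the median size of change was 0.09 over the regulators, 0.21 over all genes and 0.11 over the 10060 better expressed genes. The summed normalized count of the 10 genes was 33801, 33753 and 32884 in the controls and 32449, 34406 and 33543 under food restriction, so the sums overlapped.

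**Figure D1:**
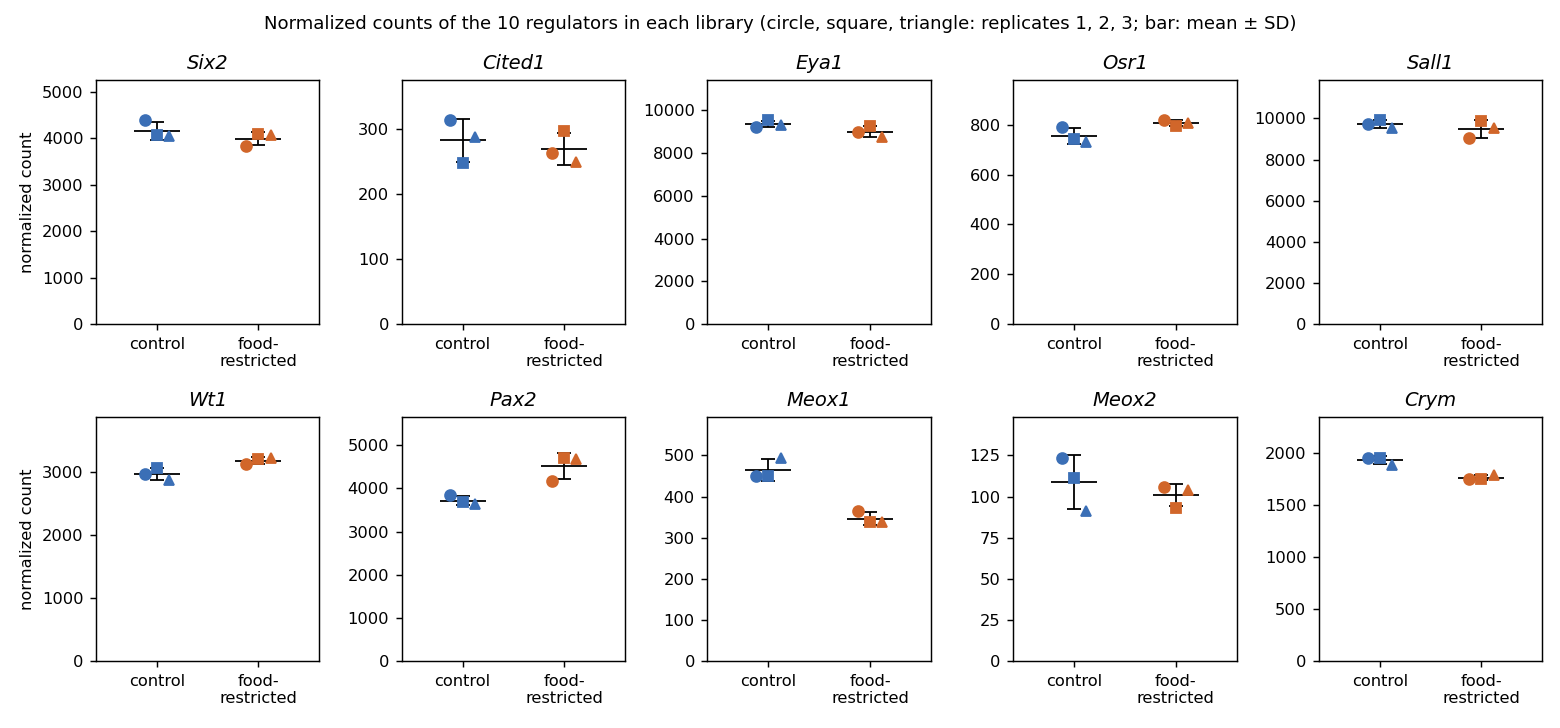
Normalized counts (vertical axes, starting at 0) of the 10 regulators in control (blue) and food-restricted (orange) libraries; circles, squares and triangles are replicates 1, 2 and 3, and bars are the mean ± SD of 3 libraries. The diets separate for Osr1, Wt1, Pax2, Meox1 and Crym and overlap for the other 5 genes.

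Six2, the homeobox factor that holds progenitors in the uncommitted state, lies at chr17:85684277-85688274 on the minus strand in GRCm38. The normalized counts were 4380, 4065 and 4036 in the controls and 3825, 4083 and 4059 under food restriction. The diets overlapped, since food-restricted replicates 2 and 3 sat among the controls. The means were 4160.2 ± 191 and 3989 ± 142 (SD, n = 3 each), and the log2 fold change was −0.06 with a 95% interval of −0.15 to 0.03 (limma, adjusted p = 0.558). The interval runs from a fold of 0.903 to 1.02. In bulk libraries, fewer cells of a type and less RNA per cell cannot be told apart.

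Eya1, a coactivator and phosphatase that binds Six2, lies at chr1:14168954-14310235 on the minus strand. Its normalized count was 9227, 9526 and 9305 in the controls and 8985, 9246 and 8740 under food restriction. One food-restricted library lay inside the control range. The log2 fold change was −0.06 with a 95% interval of −0.13 to 0.01 (limma, adjusted p = 0.446). As a fold, the interval runs from 0.917 to 1.01.

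Osr1, a zinc finger factor that marks the intermediate mesoderm before the kidney forms, lies at chr12:9570116-9581500 on the plus strand. Control libraries held 792, 743 and 730 normalized counts and food-restricted libraries 817, 793 and 806. The lowest food-restricted library was barely above the highest control. The log2 fold change was 0.09 with a 95% interval of −0.05 to 0.24 (limma, adjusted p = 0.587).

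Sall1, a zinc finger factor that works with the NuRD chromatin complex, lies at chr8:89027235-89044162 on the minus strand. The normalized counts were 9754, 9904 and 9545 in the controls and 9049, 9888 and 9549 under food restriction. Food-restricted replicate 1, the shallowest library, was the lowest, and the other food-restricted libraries lay inside the control range. The log2 fold change was −0.04 with a 95% interval of −0.11 to 0.03 (limma, adjusted p = 0.684).

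Wt1, a zinc finger factor needed by the early metanephric mesenchyme and later by podocytes, lies at chr2:105126529-105173616 on the plus strand. Its normalized count was 2975, 3069 and 2880 in the controls and 3125, 3208 and 3231 under food restriction. All 3 food-restricted libraries were above all 3 controls. The log2 fold change was 0.10 with a 95% interval of 0.01 to 0.19, and the unadjusted p of 0.0322 became 0.251 after adjustment over all genes (limma). The antisense gene Wt1os stood at 312 ± 33.9 in the controls and 315 ± 29.6 under food restriction (limma, adjusted p = 0.974). No exon of another annotated gene overlapped an exon of any of the 10 regulators, and whether the authors counted by strand is not stated.

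Pax2, a paired-box factor of the cap mesenchyme, the early nephron epithelium and the ureteric bud, lies at chr19:44756045-44837871 on the plus strand. Control libraries held 3838, 3684 and 3629 normalized counts and food-restricted libraries 4169, 4707 and 4676. All 3 food-restricted libraries were above all 3 controls, and food-restricted replicate 1 was the closest to them. The means were 3717 ± 108 and 4517 ± 302 (SD, n = 3 each). Pax2 rose by a log2 fold change of 0.28 with a 95% interval of 0.19 to 0.37 (limma, adjusted p = 7.48e-06). In the authors' deposited table the log2 fold change was 0.29 with an adjusted p of 1.16e-06. The call was lost in 1 of 17 alternative settings, the fit without a variance trend, where the adjusted p was 0.392.

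Cited1, a transcriptional coactivator of the least committed cap cells, lies at chrX:102247381-102252181 on the minus strand. The normalized counts were 313, 247 and 287 in the controls and 262, 296 and 249 under food restriction. The diets overlapped, and the log2 fold change was −0.07 with a 95% interval of −0.29 to 0.15 (limma, adjusted p = 0.848). The interval covers folds from 0.819 to 1.11, and the direction turned to 0.0092 on the log2 scale without control replicate 1. Xist, the RNA that silences 1 X chromosome in female cells, rose in the same libraries from 17654 ± 840 to 26601 ± 547 (limma, adjusted p = 5.92e-25). Dach2 and Rbbp7, named below, are X-linked like Cited1. What the Xist difference means for these genes or for any other value given here was not tested.

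Meox1, a homeobox factor better known from somites, lies at chr11:101877510-101894374 on the minus strand. Its normalized count was 450, 450 and 494 in the controls and 364, 337 and 338 under food restriction. Each food-restricted library was below each control. The means were 465 ± 25.7 and 347 ± 15.3 (SD, n = 3 each). Meox1 fell by 0.42 on the log2 scale, with a 95% interval of the log2 fold change of −0.60 to −0.24 (limma, adjusted p = 0.00152). In the authors' deposited table the log2 fold change was −0.43 with an adjusted p of 0.00292. The call was lost in the fit without a variance trend, where the adjusted p was 0.282.

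Meox2, its homeobox relative, lies at chr12:37108540-37179534 on the plus strand and was the weakest of the 10 genes. Control libraries held 124, 111 and 91.1 normalized counts and food-restricted libraries 106, 93.2 and 104. The diets overlapped throughout. The log2 fold change was −0.10 with a 95% interval of −0.43 to 0.24 (limma, adjusted p = 0.860), and the direction turned to 0.0020 without control replicate 1. The coefficient of variation among the controls was 15.1%, against 9.66% from counting alone, and the log2 fold change of Meox1 lies inside the interval of Meox2.

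Crym, a cytosolic protein that binds thyroid hormone, lies at chr7:120186380-120202111 on the minus strand. The normalized counts were 1949, 1954 and 1886 in the controls and 1746, 1755 and 1791 under food restriction. All 3 food-restricted libraries were below all 3 controls. The log2 fold change was −0.13 with a 95% interval of −0.24 to −0.02, and the unadjusted p of 0.0174 became 0.177 after adjustment over all genes (limma). In the authors' deposited table, 8 of the 10 regulators, Crym and Wt1 among them, were above an adjusted p of 0.05.

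**Figure D2:**
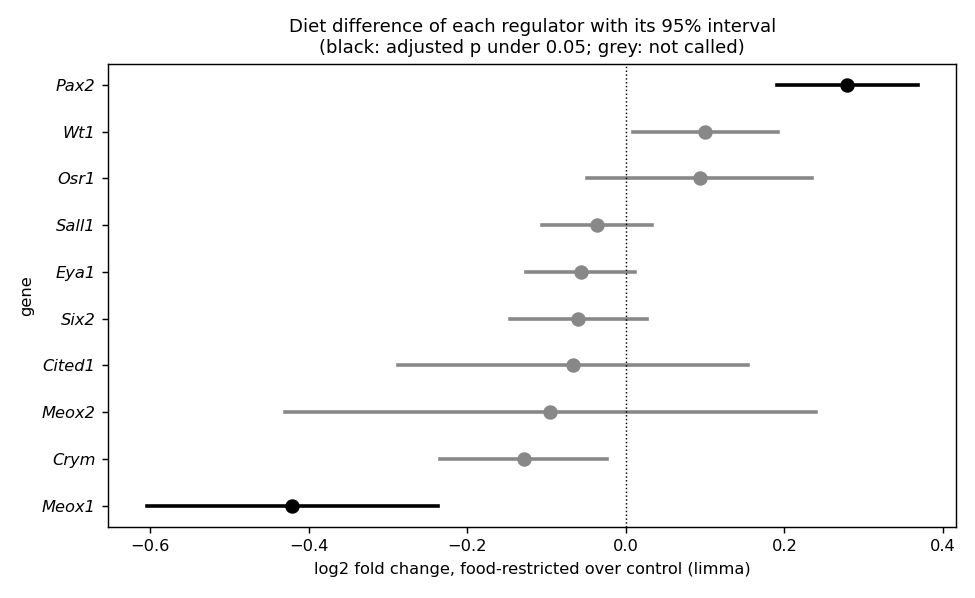
Log2 fold change of each regulator, food-restricted over control (horizontal axis), with its 95% interval from limma; black points passed an adjusted p of 0.05 and grey points did not. Pax2 at 0.28 and Meox1 at −0.42 lie apart from the other 8, which sit between −0.13 and 0.10.

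Levels were set in order per kilobase of exonic length, as the mean of 6 libraries. Six2 stood at 1923 normalized counts per kilobase and Sall1 at 1826, and their ranges over libraries overlapped. Eya1 at 1175 and Pax2 at 761 followed, each with a range of its own. Crym at 545 and Wt1 at 497 overlapped, and Osr1 at 378 came next. Meox1 at 182 and Cited1 at 157 overlapped, and Meox2 at 44.4 was the lowest.

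**Figure D3:**
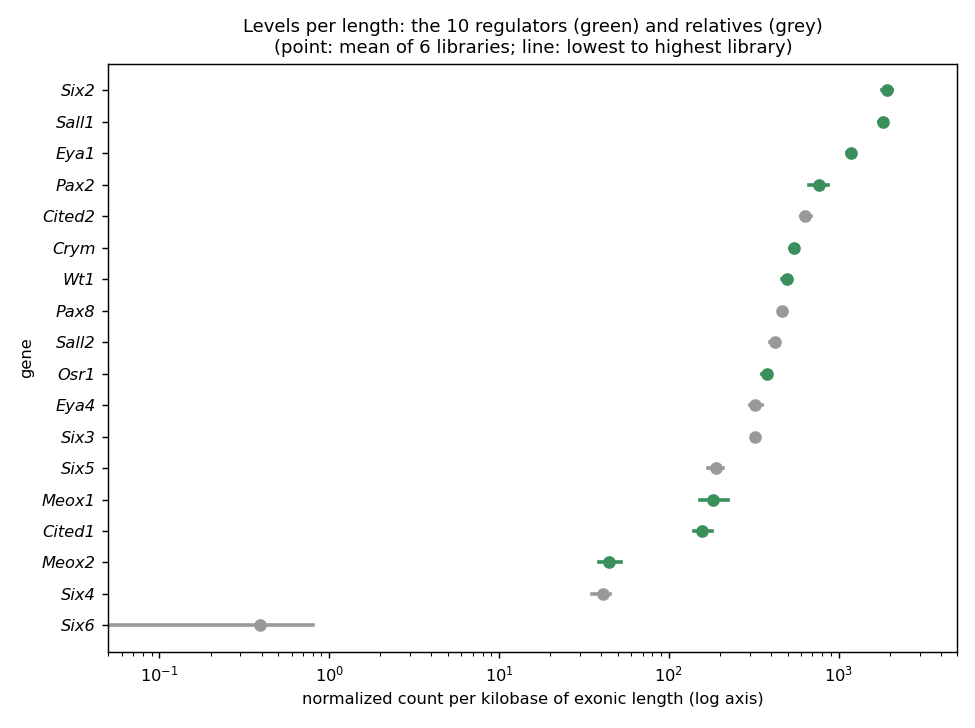
Normalized counts per kilobase of exonic length (horizontal log axis) of the 10 regulators (green) and of relatives (grey); points are means of 6 libraries and lines run from the lowest to the highest library. Six2 and Sall1 lead, and the line of Six6 runs off the axis because it was at 0 in a library.

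Each regulator was also divided by Six2 within its own library, which needs no scaling between libraries. Pax2 stood at 0.894 ± 0.0157 of Six2 in the controls and 1.13 ± 0.0362 under food restriction (SD, n = 3 each). Meox1 stood at 0.112 ± 0.00993 and 0.0871 ± 0.00709 of Six2. Wt1 stood at 0.716 ± 0.038 and 0.799 ± 0.0159, and Osr1 at 0.182 ± 0.00112 and 0.202 ± 0.0102. These 4 ratios did not overlap between diets, and each had a two-sided exact permutation p of 0.1, the smallest that 3 against 3 allows, which is 0.225 after adjustment over 9 ratios. With Eya1 in place of Six2, Pax2, Wt1 and Meox1 again did not overlap, and Osr1 did. The ratios of Cited1, Eya1, Sall1, Meox2 and Crym to Six2 overlapped. No ratio passed the test, and this design could not have let one pass. How often a ratio to Six2 or Eya1 lay fully apart over all genes was not computed. Whether the number of such ratios among the regulators is unusual was therefore not tested.

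**Figure D4:**
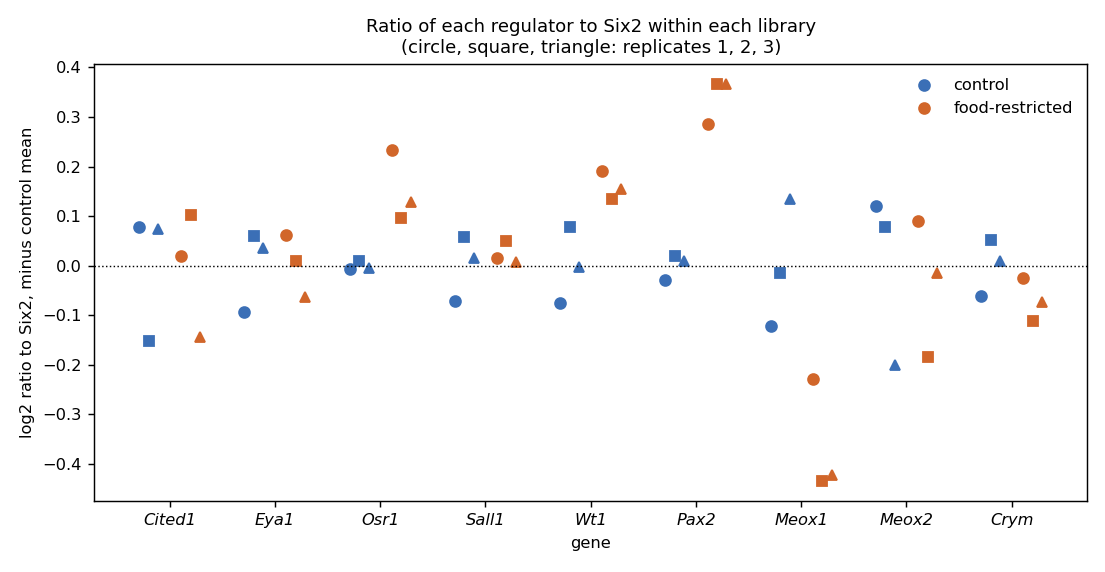
Log2 ratio of each regulator to Six2 within a library, minus the control mean (vertical axis), for control (blue) and food-restricted (orange) libraries; circles, squares and triangles are replicates 1, 2 and 3. The diets separate for Osr1, Wt1, Pax2 and Meox1, by 0.15, 0.16, 0.34 and −0.36.

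Relatives and partners of the regulators were counted from lists. Calls in a list stand beside 4.74% of all genes and 9.96% of the 10060 genes with a mean normalized count of at least 100. Of 5 listed genes of the Six2 family 0 rose and 0 fell. Six3, the neighbour of Six2 at 54975 bases, is better known from the eye and forebrain. It was the second most abundant of the listed family genes per kilobase. Its normalized count was 1732 ± 18.0 in the controls and 1762 ± 66.4 under food restriction (limma, adjusted p = 0.902). All libraries came from the cross with Six2 Cre tg/+ males, so the level of Six3 without that transgene is not known here. Of the 6 Eya and Dach genes, Dach2 was called higher, by a log2 fold change of 0.36 (limma, adjusted p = 0.0362), although its diets overlapped. That call was lost without control replicate 1 (adjusted p = 0.185), control replicate 3 (0.216), food-restricted replicate 1 (0.198) or food-restricted replicate 3 (0.141). It was also lost with a replicate block (0.0534), with limma-voom (0.0689) and with the length trend removed (0.0704). Of the 4 Sall, 2 Osr and 3 Cited genes 0 rose and 0 fell. Among 8 tested Pax genes only Pax2 passed, and Pax8, which acts with Pax2 in kidney formation, stood at 2753 ± 69.2 and 2892 ± 38.5 (limma, adjusted p = 0.503).

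Of the 13 genes of the NuRD complex, the chromatin partner of Sall1, 0 rose and 2 fell. Called shares were 4.74% over all genes and 9.96% over the 10060 genes with a mean normalized count of at least 100. The deacetylase Hdac2 fell by 0.22 on the log2 scale (limma, adjusted p = 0.00242), a call lost without food-restricted replicate 3, with an adjusted p of 0.0559. The histone chaperone Rbbp7 fell by 0.22 (limma, adjusted p = 0.00467), a call lost without control replicate 2, with an adjusted p of 0.0966. Without food-restricted replicate 1, 1 NuRD gene was called higher. Of 5 genes tied to Wt1 and 7 Hox11 genes and cofactors, 0 rose and 0 fell. Of 9 tested genes listed for thyroid hormone handling, thyroid hormone being the ligand of Crym, 1 rose and 0 fell. The receptor Thra rose by 0.29 (limma, adjusted p = 0.00354), a call lost without food-restricted replicate 2, with an adjusted p of 0.114.

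Among 30 other listed cap mesenchyme genes, 2 rose, 4 fell and 24 did not pass, with a median log2 fold change of −0.05. Over all genes 4.74% were called, and 9.96% over the 10060 genes with a mean normalized count of at least 100. Rspo3, a secreted enhancer of Wnt signalling, rose by 0.46 (limma, adjusted p = 2.24e-05) and the receptor Fgfr1 by 0.22 (limma, adjusted p = 2.31e-05). The integrin Itga8 fell by 0.19 (limma, adjusted p = 0.00194) and the cadherin Cdh2 by 0.23 (limma, adjusted p = 0.000476). Hoxc10 fell by 0.23 (limma, adjusted p = 0.00722), a call lost without control replicate 2 (adjusted p = 0.0606) or food-restricted replicate 3 (0.088). The ligand Fgf20 fell by 0.41 (limma, adjusted p = 0.0311), a call lost without control replicate 1 (adjusted p = 0.116), control replicate 3 (0.236), food-restricted replicate 2 (0.241) or food-restricted replicate 3 (0.0975). It was also lost with scaling by the library total (0.0622) and with the length trend removed (0.0835). Without food-restricted replicate 1, 4 of the 30 genes were called higher, and without food-restricted replicate 3, 2 were called lower. Among 14 tested genes of nephron commitment, Lhx1, Lef1 and Cdh4 rose, 0 fell and 11 did not pass, with a median of 0.21. Wnt4 was among those 11, at 0.18 (limma, adjusted p = 0.0735), although its diets did not overlap. It was called with upper-quartile scaling (adjusted p = 0.0453), scaling by the library total (0.028) and limma-voom (0.0483). Filters at a mean normalized count of at least 10 (0.0472) or 100 (0.0291) also called it, and the remaining alternatives did not. In the fit without a variance trend, 0 genes of any list were called.

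Pax2 and Wt1 are also genes of other kidney cells, so the markers of those cells are given beside them. Called markers stand beside 4.74% of all genes and 9.96% of the 10060 genes with a mean normalized count of at least 100. Of 10 listed podocyte markers, Foxc2 rose and Podxl fell, and the summed level was 1696 to 1712 in the controls and 1701 to 1982 under food restriction. Foxc2 was the most abundant, and the log2 fold changes ran from −0.99 to 0.43 with a median of 0.10. The defining marker Nphs1 was at 0 in 1 library. Of 10 ureteric markers, 0 rose and Hoxb7 fell, and the sums were 414 to 427 and 312 to 382. Hoxb7, the most abundant, had means of 221 in the controls and 147 under food restriction, so it weighs most in these sums. The log2 fold changes of the ureteric list ran from −0.59 to 1.15 with a median of −0.07. Wnt9b and Tfap2a were at 0 in some library. Of 11 stromal markers 4 rose, with sums of 2766 to 2798 and 3253 to 3509; only 1 was called without food-restricted replicate 3. Of 8 macrophage markers 4 rose, with sums of 240 to 262 and 399 to 461, and only 2 were called without control replicate 1, control replicate 2, food-restricted replicate 1 or food-restricted replicate 2. Of 10 proximal tubule markers 9 fell, with sums of 6256 to 6656 and 3502 to 3618, and 8 or 9 were called when 1 library was left out. Foxc2 was not called without control replicate 1, food-restricted replicate 2 or food-restricted replicate 3, and Podxl was not called without control replicate 2, control replicate 3, food-restricted replicate 1 or food-restricted replicate 3. Of 8 endothelial and 6 erythroid markers 0 rose and 0 fell. The part of these cells in the Pax2, Meox1 and other values was not tested.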

How the data were processed

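RNA was sequenced from GFP-positive cells of E18.5 mouse kidneys, 3 libraries per diet. The submitters' processing notes name genome build GRCm38, TopHat2 2.1.1, cutadapt 1.18, HTSeq 0.6.0, DESeq2 1.22.1 and bcl2fastq 2.18.0.12. The deposited table holds whole read counts for 45659 genes. It holds normalized counts, the count divided by a size factor per library, for the 25157 genes with a summed count of at least 10. Recovered size factors ranged from 0.568 to 1.53. The authors' deposited comparison gives log2 fold changes with p-values.

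For the test, limma 3.58.1 (R 4.3.3) was run on log2(normalized count + 1), with diet as the only term and a variance trend, two-sided, adjusted by Benjamini-Hochberg over 25157 genes and called under 0.05. A fold change on this scale understates the change of low genes. Count columns hold a text mark for genes without a value, and the planned edgeR and DESeq2 count models were not run. As an alternative, limma-voom was run on the read counts of the tested genes and called 1449 genes. Exonic lengths come from GENCODE M21 and promoter sequences from RefSeq. Ratios to Six2 were tested by exact permutation. The test was checked on simulated counts in which every gene had the same extra variation between libraries. That check cannot decide between variance models for the real libraries. The 10 genes, the lists and the tests were chosen with earlier results of these data known. Beside the 10 genes, the text names listed genes that passed the test, up to 3 abundant members of a list, and genes named for a regulator. Xist and Wnt4 were added after their values were seen. After the fit, genes were taken off the Six2 family, thyroid hormone, cap mesenchyme and podocyte lists for reasons other than their values and are not reported here, so the counts and medians of these lists describe the genes that remain; the other lists are whole. Errors are SDs over 3 libraries. Alternatives changed the scaling, pseudocount, filter, variance model, length correction and replicate block, or left out 1 library.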

Additional observations from a re-analysis of the deposited data

How the results depend on the processing

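Over 17 alternative settings, Pax2 kept its direction in 17 and its call in 16, with log2 fold changes of 0.25 to 0.34, and Meox1 kept its direction in 17 and its call in 16, with −0.46 to −0.38. No other regulator was called in any of them. Without a variance trend the count over all genes went from 1193 to 5, with 0 regulators called higher and 0 lower; Pax2 was then 0.28 and Meox1 −0.42, neither called, and the cause was not tested. Scaling by the library total gave 756 higher and 445 lower genes, against 563 and 630. Leaving out 1 library gave 564 to 1357 called genes, the fewest without food-restricted replicate 3, and 1 regulator higher and 1 lower each time. It moved Cited1 between −0.16 and 0.0092 and Meox2 between −0.22 and 0.0020. Ratios to Six2 then ranged on the log2 scale from −0.0832 to 0.061 for Cited1, −0.0444 to 0.0359 for Eya1, −0.0125 to 0.0523 for Sall1 and −0.136 to 0.038 for Meox2, and so changed sign. Six3 ranged from −0.0019 to 0.0523 and Wt1os from −0.0786 to 0.0653. For pairing, the mean of its diet was first taken from each gene in each library. These deviations correlated at −0.111, 0.0262 and −0.0718 between same-numbered libraries over 10060 genes. Differently numbered pairs lay between −0.0566 and 0.107. The numbers thus showed no pairing, but with 3 libraries per diet this cannot exclude a shared litter or sort day. With a replicate block 980 genes were called, Pax2 (0.28) and Meox1 (−0.42) among them. The planned edgeR and DESeq2 alternatives were not run. Among the 10 regulators the widest 95% intervals of the log2 fold change were those of Meox2, −0.43 to 0.24, and Cited1, −0.29 to 0.15.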
